A study of Mus musculus with 8 samples.

Results

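The signalling lymphocyte activation molecule (SLAM) receptors are 9 genes of mouse chromosome 1: Slamf1, Cd48, Cd244, Cd84, Ly9, Slamf6, Slamf7, Slamf8 and Slamf9. Members were chosen by the gene name that the array files give to each probe, and the family was selected on its measured difference between mutant and wild type embryos. That genotype difference is therefore given here as a description for every member, and nothing is read from a test of it. The 9 genes have 13 probes on the array, and all 9 had a probe that passed the filter, among 40244 features (genes and unnamed probes) tested.

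The Slamf1 probe was well above background in every wild type embryo and in no mutant embryo, whereas the other 8 receptors had overlapping levels in both genotypes. Of those 8, Cd48, Cd84, Ly9, Slamf8 and Slamf9 had a lower mean in the mutants, and Cd244, Slamf6 and Slamf7 had no settled direction. All 9 members had a higher mean in litter 2 than in litter 1, though Slamf1, Slamf6, Slamf7 and Slamf8 turned lower with quantile normalization, and none passed the test between litters.

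The arrays measured RNA from cells carrying CD31 (PECAM-1, an adhesion molecule of endothelial cells, platelets and some blood cells) of mouse embryos at E12.5 (midgestation). There were 4 Gata2 +9.5 mutant embryos, labelled -/-, and 4 wild type littermates, 2 of each genotype in litter 1 and in litter 2, with 1 RNA sample and 1 array per embryo. All embryos came from parents heterozygous for the +9.5 mutation, which had been backcrossed to C57Bl/6J, and each embryo's cells were enriched with anti-CD31 magnetic beads after collagenase digestion of the body without its fetal liver and brain. The +9.5 element is an intronic enhancer of Gata2, the gene of a transcription factor needed for blood stem cells to emerge from embryonic endothelium. The mutation is in the germ line, so all cells of a mutant embryo carry it, and cells left in the liver were not sampled. In such bulk samples fewer cells of a type and less RNA per cell cannot be told apart.

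SLAM receptors are immunoglobulin-like proteins on the surface of blood cells, and most of them bind the same molecule on a neighbouring cell. Short tyrosine motifs in the tails of most members, called immunoreceptor tyrosine-based switch motifs, dock the small adaptor proteins SAP (Sh2d1a) and EAT-2 (Sh2d1b1), which pass the signal to kinases such as FYN. In mouse bone marrow and fetal liver, SLAMF1 (also called CD150) on the cell surface together with absence of CD48 and CD244 is a widely used gate for blood stem cells.

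The sequences below show what the probes of the family report on. Ly9 and Slamf6 have a probe each with an open reading frame that spells a switch motif, whose 18 bases are in capitals. These are the only probes of the 13 with such a frame.
Ly9 switch motif probe: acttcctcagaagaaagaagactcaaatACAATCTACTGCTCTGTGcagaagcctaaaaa
Slamf6 switch motif probe: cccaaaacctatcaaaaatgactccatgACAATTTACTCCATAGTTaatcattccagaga
The Cd244 probe is shown by a 16-base word near its start because that word is not particular to Cd244. It belongs to the B1 family of short interspersed repeats.
Cd244 repeat word: CACAGAGAAACCCTGT
The word is present, on either strand, in 9 probes that are not assigned to Cd244. Taking all 16-base words of the Cd244 probe, 49 of 32851 RefSeq promoter windows held at least 1 of them, against at most 2 for the other 12 member probes. Of all 55681 probes, 323 (0.58%) shared a word with at least as many windows. Whether RNA carrying this repeat adds to the Cd244 signal was not tested.

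Slamf1 is the member whose level separated the genotypes, so its promoter is shown for some of the words that GATA factors are known to bind. Promoter windows (250 bases before to 50 after the gene start, RefSeq, GRCm38.p6) were given for 8 of the 9 members. They were searched on both strands for AGATAA and TGATAA, which share the core GATAA. Words that end in GATAG were not searched, and the Slamf9 window holds AGATAG. The Slamf1 window, chr1:171766882-171767181 on the plus strand, was the only one of the 8 that held either, and the match is in capitals.
Slamf1 promoter: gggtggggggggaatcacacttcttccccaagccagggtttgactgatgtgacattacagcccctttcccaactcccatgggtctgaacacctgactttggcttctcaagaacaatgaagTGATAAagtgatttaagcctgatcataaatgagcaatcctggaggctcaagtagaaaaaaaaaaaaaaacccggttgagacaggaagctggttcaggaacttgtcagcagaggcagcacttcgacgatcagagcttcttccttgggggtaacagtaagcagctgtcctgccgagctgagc
Of all 32851 promoter windows, 18.6% held AGATAA or TGATAA, so a match in 1 of 8 windows is close to what windows of this length show in general. The ETS-type word GAGGAAGT was in the Slamf9 window, and 3.2% of all windows held it. The E-box word CATCTG was in the Slamf7 and Slamf9 windows, and 17.2% of all windows held it. These matches describe letters, not binding.

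Levels are log2 of the scanner's processed signal minus the array's own 75th percentile, so 0 is the level of a bright spot on that array. They compare embryos for 1 probe and not probes with each other. The 75th percentile itself ran from 996.2 to 2480.9 signal units over the 8 arrays. Between 74.9% and 92.0% of spots per array were well above background, the scanner software's flag for a spot clearly brighter than its surroundings. Of the 13 member probes, 8 carried that flag on all 8 arrays. Differences are mutant minus wild type with the standard error (SE) of the limma fit, and n is 4 embryos per group throughout.

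Beside the CD31 label, 11 endothelial genes were examined, and all were well above background on all 8 arrays. No unenriched sample is among the 8, so their detection does not measure the enrichment. Egfl7, secreted by endothelium, had a mean level of 7.42 in wild type and 7.56 in mutant embryos, and Cldn5, a junction protein, 6.63 and 6.60. Of these 11 genes, 4 were lower and 7 higher in the mutants and none passed the test (limma, adjusted p under 0.05), with 0 also at an unadjusted p under 0.05, where 3.05% of all features were. On the first principal component of all features, which held 58.8% of the variance, wild type 3 (158.6), mutant 4 (124.3) and wild type 2 (99.8) scored highest. Wild type 4 lay between, at 23.2. Wild type 1 (-89.7) and mutants 1 to 3 (-128.1 to -60.0) were below 0, so the scores also lay partly by genotype. Results on the members are given with and without the 3 highest-scoring arrays.

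**Figure D1:**
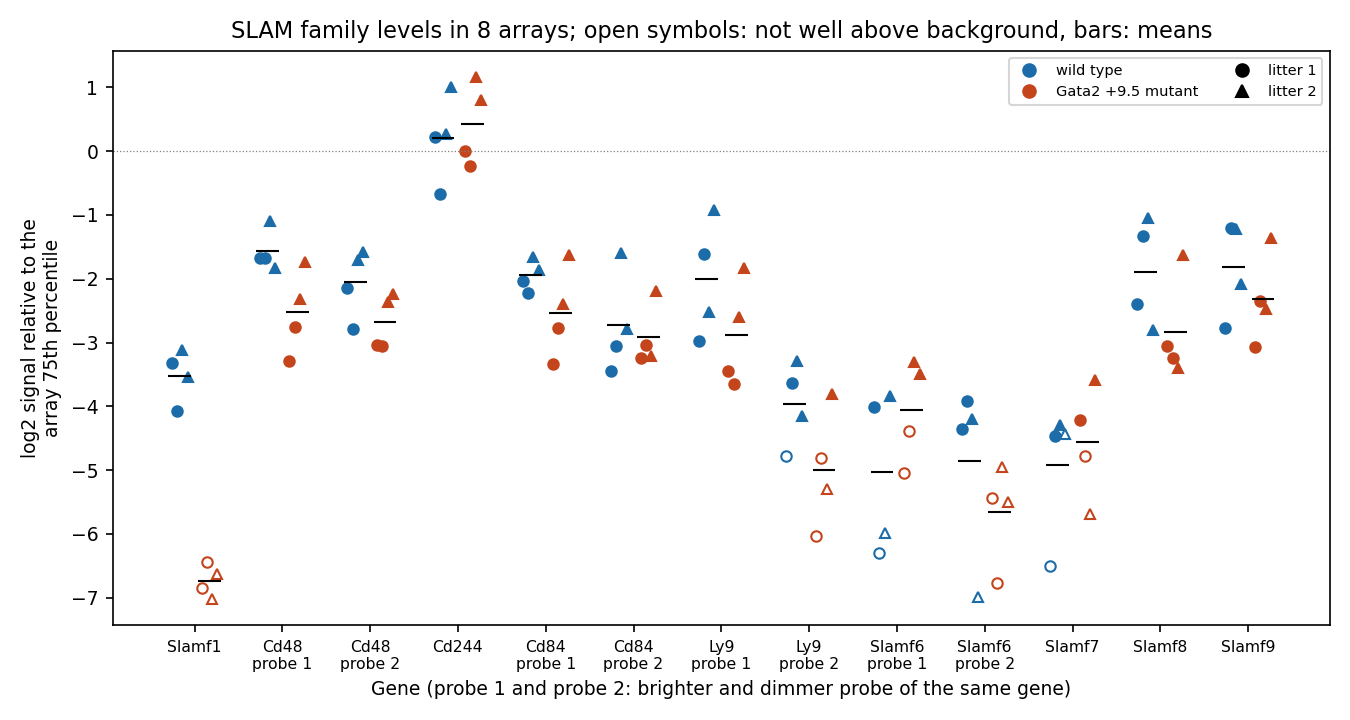
Level of each SLAM family probe on the 8 arrays (vertical axis, log2 signal relative to the array's 75th percentile) for wild type (blue) and Gata2 +9.5 mutant (red) embryos, with circles for litter 1, triangles for litter 2, bars for group means and open symbols for spots not well above background. The Slamf1 wild type points lie between -4.07 and -3.12 and the mutant points between -7.02 and -6.45, while the groups of the 12 other probes overlap.

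Slamf1, the receptor that defines the positive side of the stem cell gate, has 1 probe at chr1:173730343-173730402 (mm9). Its levels were -3.33, -4.07, -3.12 and -3.55 in wild type 1 to 4 and -6.85, -6.45, -7.02 and -6.62 in mutant 1 to 4. All 4 wild type embryos lay above all 4 mutants. The wild type spots were well above background in 4 of 4 embryos, at processed signals of 84.9 to 285.1. The mutant spots were well above background in 0 of 4, at signals of 9.90 to 15.7, and for mutant 1 the software had replaced the signal by a surrogate. A looser flag of the software, for a signal above the local background, was set for 3 of the 4 mutant spots, all but mutant 1. The mutant level is therefore a bound, and the order of the mutants among themselves carries no information. The wild type mean of -3.52 ± 0.41 (SD, n = 4) was at least 2.21-fold above the mutants, with each mutant array set to its dimmest spot well above background, and the measured mutant mean was -6.73 ± 0.25 (SD, n = 4).

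Taken on the measured signals, which give no exact value for the mutants, the fitted Slamf1 difference was -3.22 with an SE of 0.34, and with dim signals raised to that floor it was -1.14. Within litter 1 it was -2.95 and within litter 2 -3.49. Slamf1 was the only member whose genotypes did not overlap, where 0.534% of all features did not overlap and were lower in the mutants and 0.504% did not overlap and were higher. It was also the only member past an adjusted p of 0.05 in the fit, where 0.0447% of features were lower in the mutants (18 of 40244) and 0% were higher. With litter as a block that count was 0 of 40244, with a lowest adjusted p of 0.0531 (limma) and 1954 features at an unadjusted p under 0.05. The count was also 0 without wild type 1, 3 or 4 or mutant 1 or 3, each left out alone, and 6 without wild type 2. Since the genotype contrast chose the family, nothing is read from these counts. The Slamf1 difference was negative under all 18 alternative settings, from -3.40 to -0.87. The smallest value came from the normexp background with an offset of 50, which adds to dim and bright signals alike.

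The detection flag of Slamf1 belongs to the values that chose the family, so the count of probes with the same flags is a description. Of all 55681 probes, 9 (0.0162%) were well above background in 4 of 4 wild type and 0 of 4 mutant embryos, and 0 showed the opposite. Slamf1 had the highest bound of the 9. Among the others were Cd200r3, an activating receptor of basophils and mast cells, at 2.16-fold or more and Il7r, the interleukin-7 receptor of lymphoid progenitors, at 1.78-fold or more, beside Rnf157 and 5 probes without a gene name.

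Cd48, whose protein is held in the membrane by a lipid anchor and is the ligand of CD244, has 2 probes. The brighter probe read -1.67, -1.68, -1.10 and -1.84 in wild type 1 to 4 and -3.29, -2.75, -2.32 and -1.73 in mutant 1 to 4. Mutants 1, 2 and 3 lay below all wild type embryos, and mutant 4 lay above wild type 4. The difference was -0.95 with an SE of 0.40, at -1.34 within litter 1 and -0.56 within litter 2. The dimmer Cd48 probe read -2.15, -2.79, -1.70 and -1.58 in wild type and -3.04, -3.06, -2.36 and -2.24 in mutant embryos, so that wild type 2 lay among the mutants. Its difference was -0.62, in the same direction as that of the brighter probe, and both probes were well above background on all 8 arrays.

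Cd244, the receptor of CD48 on natural killer and other blood cells, read 0.22, -0.67, 0.27 and 1.00 in wild type 1 to 4 and 0.00, -0.24, 1.16 and 0.80 in mutant 1 to 4. The genotypes overlapped almost entirely, and the higher levels came from litter 2 in both. The difference was 0.22 with an SE of 0.45, at 0.10 within litter 1 and 0.35 within litter 2. Over the alternative settings it ran from -0.30 to 0.49 and was negative in 3 of 19, so no direction is given. The repeat word in this probe, shown above, stands beside every value of this probe.

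Cd84, on platelets and lymphocytes, and Ly9, on lymphocytes, are self-binding receptors and have 2 probes each. The brighter Cd84 probe read -2.04, -2.23, -1.65 and -1.86 in wild type and -3.33, -2.77, -2.39 and -1.63 in mutant embryos. Mutants 1 to 3 were below all wild type embryos and mutant 4 was above them all. The Cd84 difference was -0.59 with an SE of 0.40, at -0.92 within litter 1 and -0.26 within litter 2. Its dimmer probe read -3.45, -3.06, -1.60 and -2.79 in wild type and -3.24, -3.05, -3.21 and -2.19 in mutants, a difference of -0.20 that turned positive, 0.11, within litter 1.

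The brighter Ly9 probe read -2.98, -1.62, -2.52 and -0.93 in wild type and -3.45, -3.65, -2.60 and -1.83 in mutant embryos. The 2 genotypes overlapped, with mutants 1 and 2 below every wild type embryo. The difference was -0.87 with an SE of 0.54, at -1.25 within litter 1 and -0.49 within litter 2. The Ly9 switch motif probe, printed above, read -4.78, -3.64, -3.29 and -4.14 in wild type and -6.04, -4.81, -5.30 and -3.81 in mutants. It was well above background in 3 wild type embryos and 1 mutant embryo, and its difference was -1.03.

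Slamf6 and Slamf7, receptors of T, B and natural killer cells, were near background. The Slamf6 probe used in the fit read -4.01, -6.30, -5.99 and -3.84 in wild type and -5.04, -4.39, -3.30 and -3.49 in mutant embryos, and was well above background in 2 embryos of each genotype. The Slamf6 switch motif probe read -4.36, -3.92, -4.19 and -6.98 in wild type and -5.43, -6.77, -4.95 and -5.50 in mutants, and was well above background in 3 wild type embryos and 0 mutants. Both Slamf6 probes had overlapping genotypes, and they disagreed in direction. The first differed by 0.98 with an SE of 0.63 and the switch motif probe by -0.80, and wild type 4 was the brightest wild type embryo for the first and the dimmest for the switch motif probe.

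Slamf7 read -6.50, -4.46, -4.29 and -4.43 in wild type and -4.21, -4.78, -5.69 and -3.59 in mutants, and was well above background in 2 embryos of each genotype. Its difference was 0.36 with an SE of 0.59. It was 0.99 within litter 1, where wild type 1 held a surrogate signal, and -0.27 within litter 2. Without wild type 1 the difference was -0.17. No direction can be given for Slamf6 or Slamf7 at these levels.

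Slamf8 and Slamf9, members with a short tail that are found on macrophages and dendritic cells, had similar patterns over the arrays. Slamf8 read -2.40, -1.33, -1.05 and -2.80 in wild type and -3.06, -3.23, -3.40 and -1.62 in mutant embryos. Slamf9 read -2.78, -1.20, -1.22 and -2.08 in wild type and -3.06, -2.35, -2.48 and -1.36 in mutant embryos. For both genes wild type 2, wild type 3 and mutant 4 were the 3 highest arrays. The differences were -0.94 (SE 0.52) for Slamf8 and -0.50 (SE 0.48) for Slamf9.

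Counted over the family, 6 members and 10 of the 13 probes had a lower mean in the mutants. The median member difference was -0.59, where the median of all features was 0.05 and 47.6% of them were lower in the mutants. In Cd48, Cd84, Ly9, Slamf8 and Slamf9 the difference was further below 0 in litter 1 than in litter 2 for the probes in the fit. The dimmer Cd48 probe (-0.58 and -0.66) and the dimmer Cd84 probe (0.11 and -0.50) went the other way. In the test of that difference between litters, none of the 9 members passed (limma interaction term, adjusted p of 1 for each), where 0% of the 40244 features passed and 489 had an unadjusted p under 0.05.

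**Figure D2:**
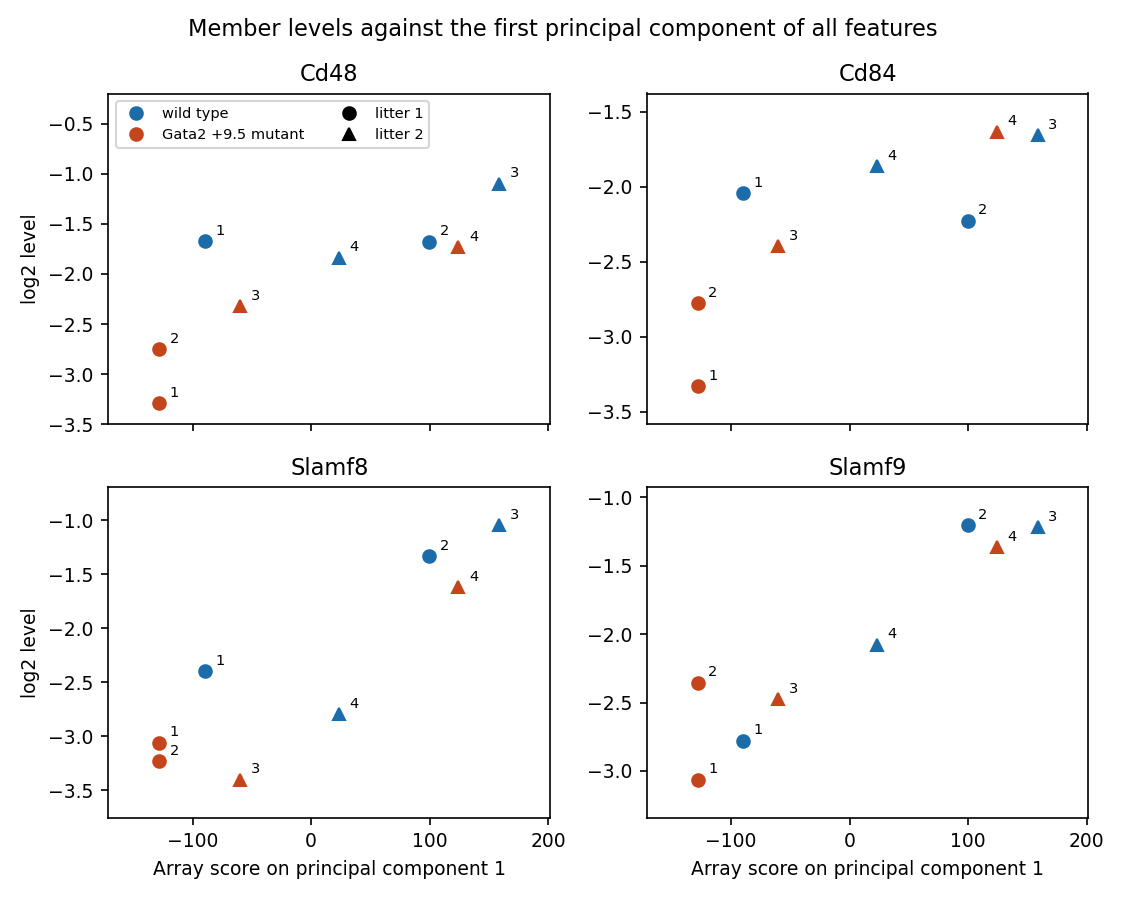
Level of Cd48, Cd84, Slamf8 and Slamf9 (vertical axis, log2) against each array's score on the first principal component of all features (horizontal axis), with numbers for the embryo within its genotype. The 4 genes have Pearson correlations of 0.81, 0.79, 0.88 and 0.94 with the score over the 8 arrays, and mutant 4 (red triangle, score 124.3) sits with wild type 2 and wild type 3 at the right.

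Most of the lower members followed the component that set those 3 arrays apart. The Pearson correlation with its score over 8 arrays was 0.94 for Slamf9, 0.88 for Slamf8, 0.81 for Cd48, 0.79 for Cd84 and 0.68 for Ly9. It was 0.53 for Slamf7, 0.43 for Slamf1, 0.08 for Cd244 and -0.37 for Slamf6. These correlations are descriptions: the points share arrays with their brightness and signal range. The pair of arrays with the largest share of spots well above background, wild type 3 (92.0%) and mutant 4 (91.9%), also had the highest scores (158.6 and 124.3). The part of this component in the member differences was not tested.

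Without wild type 2, wild type 3 and mutant 4, the Slamf1 difference was -3.33, Cd48 -1.03, Ly9 -1.28, Cd84 -0.88, Slamf8 -0.63 and Slamf9 -0.20. These kept their sign with 2 wild type and 3 mutant embryos left, which for Slamf1 could not be otherwise, since its genotypes did not overlap. Over the other alternative settings Cd48, Cd84, Ly9, Slamf8 and Slamf9 were also negative in every one. Cd244 (-0.30) and Slamf6 (-0.32) turned negative without the 3 arrays, and Slamf7 was 0.57.

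Between litters, which the choice of the family did not use, all 9 members had a higher mean in litter 2. Litter 2 minus litter 1, with genotype in the model, was 0.98 (SE 0.32) for Cd244, 0.96 (SE 0.46) for Ly9, 0.78 (SE 0.61) for Slamf6, 0.71 (SE 0.31) for Cd84 and 0.60 (SE 0.33) for Cd48. It was 0.57 (SE 0.44) for Slamf9, 0.49 (SE 0.58) for Slamf7, 0.29 (SE 0.52) for Slamf8 and 0.10 (SE 0.31) for Slamf1, whose mutant spots were not well above background. None passed the test after adjustment over all features (limma), where 4.01% of features were higher and 0.895% lower in litter 2. Leaving out each embryo in turn moved that count of 1972 features to between 4 (without mutant 2) and 4055 (without wild type 2).

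The lowest adjusted p of a member was 0.102, for Cd244, and Cd244 and Cd84 were the 2 members at an unadjusted p under 0.05 (limma), as were 25.8% of all features. The median member difference of 0.60 stands beside a median of 0.33 over all features, 64.1% of which were higher in litter 2. With quantile normalization that overall median was 0.03, and Slamf1 (-0.56), Slamf6 (-0.02), Slamf7 (-0.39) and Slamf8 (-0.19) turned to lower in litter 2. Cd48, Cd84, Cd244, Ly9 and Slamf9 stayed higher under each alternative tried. Cell type markers also differed between litters, with list medians from -0.86 (endothelial) to 1.33 (macrophage). Past the threshold (limma) were 4 of 11 endothelial genes, all lower in litter 2, and 6 of 12 macrophage genes, all higher. The part of cell types in the member litter differences was not tested. Each litter was hybridised on a slide of its own, so litter and slide cannot be told apart.

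**Figure D3:**
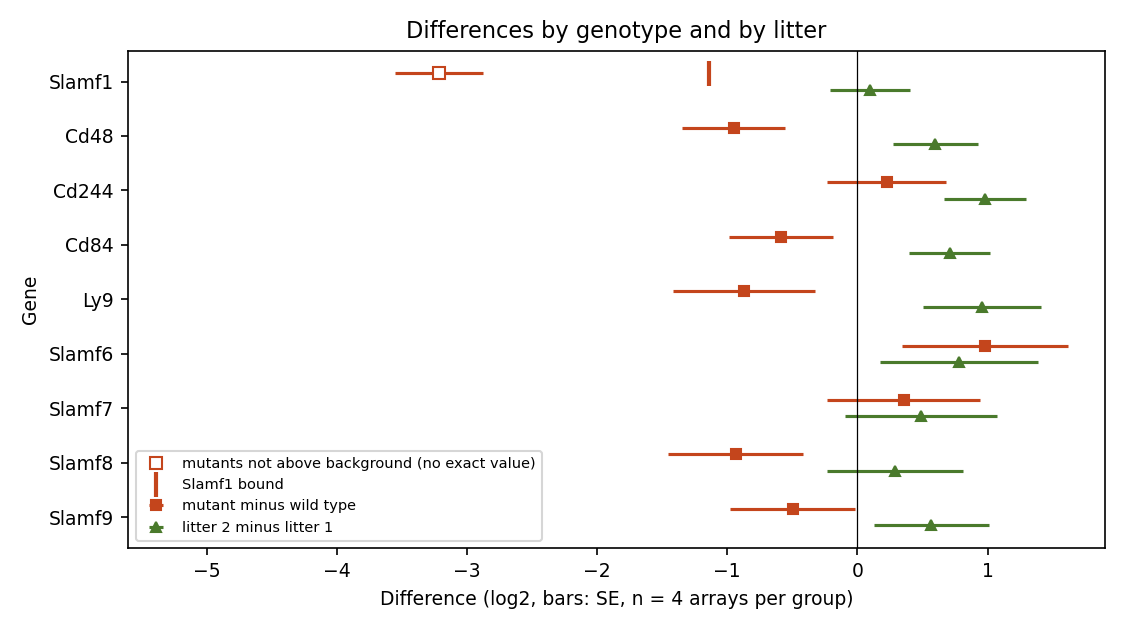
Difference between genotypes (red squares, mutant minus wild type) and between litters (green triangles, litter 2 minus litter 1) for the 9 members, in log2 units with the SE of the limma fit as bars and 4 arrays per group. The open square of Slamf1 (-3.22) is the fitted value on mutant signals that were not well above background, the vertical tick beside it is the bound with a floor (-1.14), and Cd244 has differences of 0.22 by genotype and 0.98 by litter.

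The 9 genes lie within 1 stretch of chromosome 1, from 173515388 (Cd244 probe) to 174512126 (Slamf8 probe) in mm9. Cd244, Ly9, Slamf7, Cd48, Slamf1, Cd84 and Slamf6 form a cluster, and Slamf9 and Slamf8 follow after a gap of 534835 bases that holds other genes. The members next to Slamf1, Cd48 at 100.6 kb on the near side and Cd84 at 86.2 kb on the far side, had the overlapping levels given above. In a window reaching 250 kb beyond the members, 33 other named genes were tested, of which 12 had a lower and 21 a higher mean in the mutants. None passed the test (limma), with 1 at an unadjusted p under 0.05 (3.05% of all features were), and their median difference was 0.25. Klhdc9, 441.5 kb from the Slamf1 probe, was the only neighbour whose genotypes did not overlap, at 0.52 (SE 0.29, limma adjusted p = 0.718). The 2 neighbours of highest mean level were Tagln2, an actin-binding protein (0.37, SE 0.43), and the predicted gene Gm2710 (0.52, SE 0.46).

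**Figure D4:**
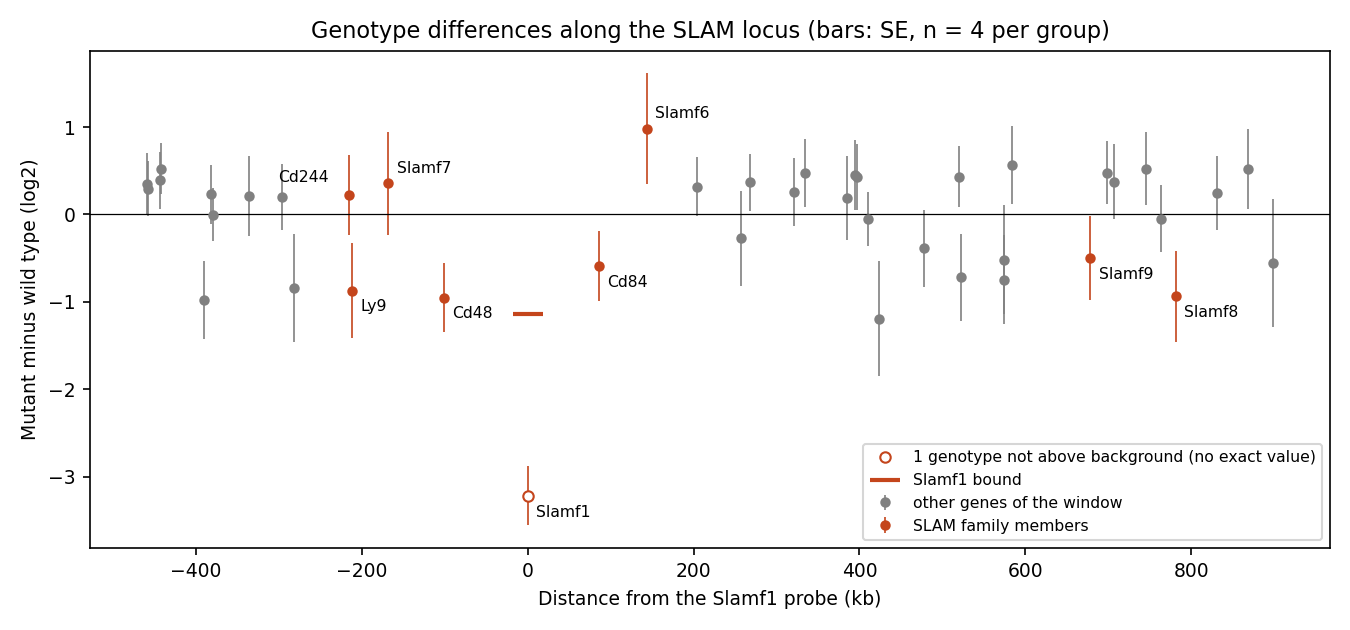
Mutant minus wild type difference (vertical axis, log2, bars are the SE of the limma fit, n = 4 per group) of SLAM family members (red) and 33 other genes (grey) by distance from the Slamf1 probe (horizontal axis, kb). The open circle of Slamf1 (-3.22) is the fitted value on mutant signals not well above background, and the short bar is its bound with a floor (-1.14). That bound is a least size and not an estimate like the other points. Atp1a4 is at -1.19 (SE 0.66), and Cd48 and Cd84, the members next to Slamf1, are at -0.95 and -0.59.

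The adaptors and kinases through which SLAM receptors signal gave no call. Of 26 such genes, all tested, 14 had a lower and 12 a higher mean in the mutants, the median difference was -0.12, and none passed the test (limma), with 3 at an unadjusted p under 0.05 (3.05% of all features were). Sh2d1a, the adaptor SAP, was well above background in 3 wild type and 2 mutant embryos and differed by -0.71 (SE 0.46). Sh2d1b1, the adaptor EAT-2, was detected on all 8 arrays and differed by -0.56 (SE 0.63), and its duplicate Sh2d1b2 by -0.54 (SE 0.63). The 2 genes of highest mean level were Arhgef7, an exchange factor that binds PAK kinases (0.21, SE 0.40), and Ptpn11, the phosphatase SHP-2 (0.45, SE 0.37). Prkcq, protein kinase C theta, was the only one whose genotypes did not overlap, at -1.14 (SE 0.37, limma adjusted p = 0.718).

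The other surface proteins with which SLAM receptors are combined to sort stem and progenitor cells were 12 genes, of which 9 had a lower and 3 a higher mean in the mutants. None passed the test (limma), with 3 at an unadjusted p under 0.05 (3.05% of all features were), and the median difference was -0.52. The mean level over this list was 0.05 to 0.20 in wild type and -0.90 to -0.29 in mutant embryos. Itga2b, the CD41 integrin of platelets and early blood progenitors, differed by -2.45 (SE 0.41, limma adjusted p = 0.125). Its genotypes did not overlap. The 2 genes of highest mean level, Cd34 and Cd9, which endothelium also makes, differed by 0.21 (SE 0.47) and 0.13 (SE 0.45), and Kit, the stem cell factor receptor, by -0.34 (SE 0.38).

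**Figure D5:**
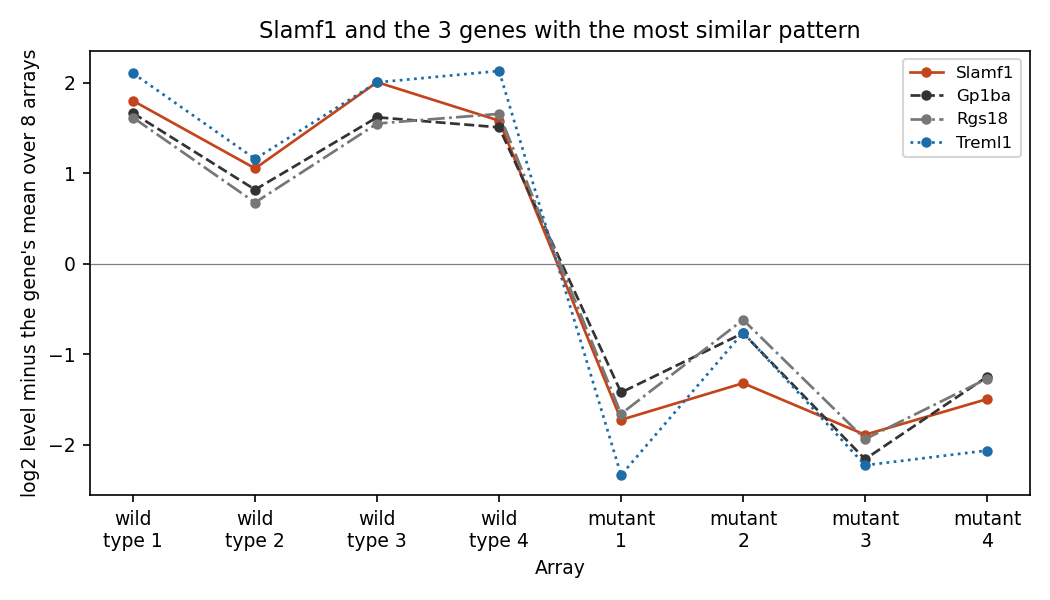
Level of Slamf1 and of Gp1ba, Rgs18 and Treml1 on the 8 arrays (vertical axis, log2 level minus the gene's own mean over the arrays). All 4 genes are above 0 in the 4 wild type and below 0 in the 4 mutant embryos, and wild type 2 is the lowest wild type embryo for each. The Slamf1 mutant spots were not well above background, so their order carries no information.

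The 3 genes whose pattern over the 8 arrays was most like that of Slamf1, among 21041 named genes compared, are known from platelets and their precursors. They were Gp1ba, a subunit of the receptor for von Willebrand factor (Pearson r = 0.986), Rgs18, a regulator of G protein signalling (r = 0.983), and Treml1, a receptor of platelet granules (r = 0.983). Gp1ba read 0.56, -0.29, 0.51 and 0.40 in wild type and -2.53, -1.87, -3.26 and -2.35 in mutant embryos. As with Slamf1, wild type 2 was the lowest wild type embryo. All 3 genes were well above background on all 8 arrays. The arrays fall into their 2 genotypes in each of these genes, so that the genotype gap sets most of each r, and r is a description here. The Slamf1 values behind r are also those that chose the family, so the likeness gives no independent support. Its mutant spots were not well above background, so the order of the 3 genes by r carries no information.

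No other member had a gene of the platelet list among its 3 most similar genes. For Cd48 these were Fsip2l (r = 0.976), Rnf222 and Zp1, and for Cd84 Rnf222 (r = 0.981), Olfr1183 and Dlx5, so that Rnf222 stood in both lists. For Cd244 they were Lim2 (r = 0.997), Dact1 and Crnde. None of their probes shares an exact 16-base word with the Cd244 probe, though the Lim2 probe shares words with 4 promoter windows. Inexact copies of a repeat were not searched. For Ly9 they were 2810459M11Rik (r = 0.979), Ssmem1 and Actr3b, for Slamf6 5830458C19Rik (r = 0.984), Cgref1 and Olfr1443, and for Slamf7 Mc4r (r = 0.945), Lrrc39 and 9530046B11Rik. For Slamf8 they were Spink8 (r = 0.997), Olfr380 and Gstm6, and for Slamf9 4930547H16Rik (r = 0.988), Olfr49 and Ggnbp1. Olfactory receptor genes stood in the lists of Cd84, Slamf6, Slamf8 and Slamf9. Among the members themselves, the closest pairs were Cd48 with Cd84 (r = 0.93) and Slamf8 with Slamf9 (r = 0.84), over 8 arrays. Slamf1 was closest to Cd48 (r = 0.75).

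Markers of the blood cells that carry SLAM receptors moved with genotype to different degrees, and their part in the member differences was not tested. Platelet and megakaryocyte genes were lower in the mutants for 13 of 13, with 12 not overlapping and a median of -2.56. Over all features, 47.6% were lower in the mutants and 0.534% were lower without overlap. The mean level of the platelet list was 1.56 to 2.52 in wild type and -0.64 to 0.24 in mutant embryos. Of these, Treml1 (-3.70, SE 0.43, limma adjusted p = 0.0232), Gp9 (-3.49, SE 0.46, limma adjusted p = 0.0363) and Gp1ba (-2.80, SE 0.39, limma adjusted p = 0.0441) fell.

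Granulocyte genes were lower for 11 of 12, 6 of them without overlap, with list levels of -0.77 to -0.15 against -3.17 to -2.06. Among 8 mast cell and basophil genes 7 were lower, 3 of them without overlap (0.534% of all features were lower without overlap). S100a9 (-4.93), Mpo (-4.89), S100a8 (-3.98) and Prg2 (-3.33) fell, and so did Hdc (-3.53) of the mast cell list (limma). None of these 8 calls held with litter as a block, or without wild type 1, 3 or 4 or mutant 1 or 3, since no feature of those fits passed. Nor did they with quantile normalization (limma adjusted p from 0.0504 to 0.236). They were also lost without wild type 2, wild type 3 and mutant 4 (limma adjusted p from 0.172 to 0.882), where Treml1 still differed by -3.89. Genes of leukocytes in general were lower for 11 of 11, at a median of -0.998, with none past the threshold. Of the 11, 6 were at an unadjusted p under 0.05 (limma), as were 3.05% of all features. The brightest were Coro1a (-0.78, SE 0.35) and Laptm5 (-0.14, SE 0.31). Cytip (-1.94, SE 0.40) was the only one whose genotypes did not overlap. The levels of this list were -0.54 to 0.16 in wild type and -1.73 to -0.85 in mutant embryos.

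Stem and progenitor genes were lower for 9 of 14, with Cd34 (0.21) and Lyl1 (-0.21) the brightest. Macrophage genes, a cell type of Slamf8 and Slamf9, were lower for 10 of 12 at a median of -0.20, and their list levels overlapped (-0.51 to 0.92 and -0.70 to 0.67). Itgam, shared with granulocytes, and Csf1r, the 2 brightest of them, were well above background on all 8 arrays and differed by 0.27 and -0.23. In the T and natural killer cell list 7 of 11 genes were lower, in the B cell list 3 of 6, in the dendritic cell list 3 of 5 and in the erythroid list 2 of 7. None of these genes passed the test (limma), and the brightest were Lck (-0.16) and Cd4 (0.30), Ebf1 (0.34) and Cd79b (-0.45), Siglech (0.33) and Irf8 (-0.31), and Hbb-y (0.51) and Hba-a1 (0.38).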

How the data were processed

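The authors deposited 1 scanner file per embryo, holding linear spot intensity values. Per the file headers the scanner software was Agilent Feature Extraction 10.7.3.1 (1 channel, mm9 annotation). Its processed intensity has the background and spatial trend of the array removed, and very low signals are replaced by a surrogate. The authors' deposited table gives log2 values per sample, a log2 fold change, a p-value, an adjusted p-value and the limma statistics t and B, each a score. The submitters' processing notes name limma for it, and it served as an alternative. Its between-array normalization is not given in the sources used here.

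For the levels, the log2 processed intensity was centred on the 75th percentile of each array's non-control spots, outlier spots (130 to 521 per array) were dropped, and repeated spots were averaged. Of 55681 probes, 26743 were named by accession, 4463 by a symbol or synonym in RefSeq's gene table, 1518 kept the file's name, 13 are the members' and 22944 had none. A probe was kept if 4 or more of the 8 arrays had it well above background (48121 probes), the brightest standing for its gene. This gave 40244 features, 21371 with a symbol, each with at least 3 values per group, and 709 with a missing spot in the fit. The median genotype change was 0.05.

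Tests used limma 3.58.1 under R 4.3.3 (lmFit and eBayes, two-sided), with Benjamini-Hochberg adjustment over all 40244 features and a threshold of 0.05. Genotype was the term, litter was tested beside it in a joint model, and an interaction term gave the difference between litters. The fits were tested on simulated data. SE beside a member's difference comes from the fit, with 1 representative probe per gene, and differences of second probes are plain differences of means. "At least" folds divide the wild type mean by the mutant mean after each mutant value was raised, where lower, to the dimmest spot well above background on its array, the floor that the floor setting also uses. Array number limits the precision. The labels say embryos were separate and litters shared. Sample numbers only name samples. Same-numbered deviations correlated at 0.62, -0.03, -0.10 and -0.16.

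The members and lists were chosen with earlier results of these data known. The rule for naming genes takes all members, up to 4 genes of each list past the threshold or else the 2 of highest mean level, and the 3 genes most correlated with each member. Other genes given here (those with non-overlapping genotypes, detected in 1 genotype alone, or of known role) were named after their values were seen. Alternatives were quantile normalization, normexp background, both, a floor, other filters, the mean of a gene's probes, the authors' deposited table, blocks, and arrays left out.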

Additional observations from a re-analysis of the deposited data

Results flagged for a closer look

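In 2 of 26 groups of 4 embryos (13 member probes in each genotype), 1 embryo lay far outside the range of the other 3. Chance alone gives such a gap in about 1 in 20 groups. The Slamf6 switch motif probe read -6.985 in wild type 4, against -4.36 to -3.92 in the other wild type embryos, and that spot held a surrogate signal. Slamf7 read -6.498 in wild type 1, against -4.46 to -4.29 in the others, and that spot also held a surrogate signal. Both spots were not well above background. With wild type 1 left out, the Slamf7 litter difference went from 0.49 to -0.048. The cause of either low spot was not tested.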

How the results depend on the processing

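The count of features that differed between genotypes (18) was 1 with quantile normalization, 39 with normexp background, 5 with both, 30 with a floor, 52 in the authors' deposited table and 8 without a filter. It was 0 with litter as a replicate block, 0 with sample number as a replicate block and 0 without wild type 2, wild type 3 and mutant 4. Leaving out each embryo in turn gave 0 to 24, with 0 without wild type 1, 3 or 4 or mutant 1 or 3. Sample numbers do not pair the embryos. The litter count (1972) was 797 with quantile normalization, 1171 with normexp background and 5912 without the 3 arrays, and ran from 4 (without mutant 2) to 4055 (without wild type 2) when each embryo was left out. The interaction count (0) was 4 in the authors' deposited table. The count of stem cell gate partners (0) was 2 with normexp background, 1 in the authors' deposited table and 1 with the filter on all 8 arrays. No other alternative moved the counts of the adaptor or neighbour lists, which stayed at 0. The Slamf1 genotype difference was -2.77 with quantile normalization, -0.87 with normexp background, -0.92 with both and -1.14 with a floor. The Slamf1 litter difference (0.10) was -0.56 with quantile normalization, -0.14 with normexp background, -0.16 with both, -0.37 in the authors' deposited table and -0.30 without the 3 arrays, and -0.10 to 0.23 when each embryo was left out. That of Slamf6 (0.78) was -0.019 with quantile normalization. That of Slamf7 (0.49) was -0.39 with quantile normalization, -0.16 with normexp background, -0.17 with both, and -0.048 to 1.03 when each embryo was left out. That of Slamf8 (0.29) was -0.19 with quantile normalization, -0.12 with both, -0.18 in the authors' deposited table and -0.32 without the 3 arrays, and -0.14 to 0.71 when each embryo was left out. Cd244 passed the litter test with normexp and quantile normalization together (limma adjusted p = 0.043) and without the 3 arrays (0.0495). The cause of these shifts was not tested. Low signal over background limits Slamf6 and Slamf7 in both genotypes and Slamf1 in the mutants.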
